A study of Homo sapiens with 6 samples.

Results

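MCL1 and 9 relatives of the BCL2 family were followed in Het1A cells bathed daily, for minutes at a time, in acidified bile acid medium. The members were chosen by gene name, and all 10 were found among the 58735 genes of the deposited count table. All 10 also passed the filter on low counts, which left 17743 genes to test. Het1A is a line made from human oesophageal epithelium with SV40 large T antigen, a viral protein that makes cells divide without limit.

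The 3 bile acid libraries come from cells exposed for 10 min daily over 5 days to keratinocyte medium brought to pH 4.0, which carried bile acids at 100 µM. These were deoxycholic acid, the taurine conjugate taurocholic acid and the glycine conjugates glycocholic, glycodeoxycholic and glycochenodeoxycholic acid. The 3 control libraries come from cells given 0.1% DMSO as vehicle, and the labels do not state that their medium was acidified, so acid and bile acids cannot be told apart here. Both groups were in 1% serum throughout, starting 48 h ahead of the exposures, and were harvested 24 h after the last one. The libraries are labelled biological replicates of a single line, without saying how the cultures were separated, so the p-values measure the spread between these libraries.

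Proteins of the BCL2 family control the release of cytochrome c from mitochondria, the step that commits most cells to apoptosis. Pro-survival members (MCL1, BCL2 and BCL2L1, whose main product is BCL-XL) hold back the effectors BAX and BAK1, which otherwise form pores in the outer membrane. BH3-only members (BCL2L11, also named BIM, BID, BAD, BIK and PMAIP1, also named NOXA) sense stress and either block the pro-survival proteins or activate the effectors directly. MCL1 has a short-lived mRNA and protein, so its level follows growth and stress signals quickly. In oesophageal epithelium these proteins bear on how cells survive reflux, since bile acids can trigger apoptosis.

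What the 10 proteins share is the BH3 motif, a short helix through which members bind each other. It was located in 1 principal coding transcript of each gene (GENCODE release 29, GRCh38) as a codon for leucine, 3 codons for any residue, then codons for glycine and aspartate, with serine allowed in place of glycine. The set is shown because this motif is what makes the genes 1 family. Each member held it, and the 36 coding bases around it are given 5′ to 3′ on the sense strand, with the codons for leucine, glycine (or serine) and aspartate in capitals. The pro-survival members are given first, then the effectors, then the BH3-only members.
MCL1, chr1:150578865-150578900, minus strand: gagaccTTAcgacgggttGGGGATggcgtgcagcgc
BCL2, chr18:63318349-63318384, minus strand: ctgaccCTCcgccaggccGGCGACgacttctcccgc
BCL2L1, chr20:31721922-31721957, minus strand: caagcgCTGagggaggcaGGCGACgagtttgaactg
BAX, chr19:48955781-48955816, plus strand: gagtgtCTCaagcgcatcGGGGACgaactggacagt
BAK1, chr6:33575387-33575422, minus strand: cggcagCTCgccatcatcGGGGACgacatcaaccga
BCL2L11, chr2:111150097-111150132, plus strand: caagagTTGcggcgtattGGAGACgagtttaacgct
BID, chr22:17739415-17739450, minus strand: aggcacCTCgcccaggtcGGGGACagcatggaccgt
BAD, chr11:64271622-64271657, minus strand: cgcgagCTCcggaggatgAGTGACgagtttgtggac
BIK, chr22:43127710-43127745, plus strand: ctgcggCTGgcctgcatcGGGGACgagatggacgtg
PMAIP1, chr18:59902667-59902702, plus strand: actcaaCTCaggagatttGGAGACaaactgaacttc
All 10 stretches lie within 1 coding exon. BAD is the one member with serine in place of glycine at this position. MCL1 alone encodes the aspartate with GAT, where the other 9 use GAC. In MCL1 the leucine is residue 213 and the aspartate residue 218 of 350, and in PMAIP1, the shortest protein with 54 residues, they are residues 29 and 34. BID held a further match with serine nearer its start, which is not shown.

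Total counts were 27008714 to 28497721 in bile acid libraries and 21006677 to 26218597 in control libraries, and CPM below are counts scaled to each library's size and TMM factor. Control 2 stood apart from the other 5 libraries: it had 19101 genes with a count, against 24174 to 25337 in the others, and the first principal component of log2 CPM, with 73.1% of the variance, placed it at 145 and the others between −44.0 and −6.89. Fold changes of the members are therefore given with and without it. As a check of the labelled cell type, the simple epithelial markers KRT8, KRT18, KRT19, EPCAM and CDH1 were all tested, with summed levels of 912.9 to 1034 CPM in bile acid libraries and 633 to 1541 CPM in control libraries. Of 7 squamous markers, 4 (KRT5, KRT14, DSG3 and TP63) stayed under 1 CPM in every library, so the defining keratins of a stratified squamous lining were near 0 here, while KRT17 and SFN of the same list were present. The squamous list summed to 84.4 to 185 CPM in bile acid and 73.4 to 201 CPM in control libraries. Of 15 fibroblast, leukocyte and endothelial markers, 11 stayed under 1 CPM in every library, and PTPRC, CD3E and LYZ of the leukocyte list, CDH5 of the endothelial list and COL3A1 of the fibroblast list had no count in any library. COL1A1, THY1 and PDGFRB of the fibroblast list and CD14 of the leukocyte list were present. COL1A1 measured 92.9 to 231 CPM in bile acid and 42.7 to 192 CPM in control libraries. THY1 measured 73.8 to 88.5 and 76.2 to 179 CPM, and PDGFRB 15.1 to 23.5 and 9.13 to 20.1 CPM, in the same order. The fibroblast list summed to 191 to 321 CPM in bile acid and 165 to 298 CPM in control libraries. The leukocyte list, nearly all of it CD14, summed to 12.4 to 16.1 CPM in bile acid and 9.16 to 12.99 CPM in control libraries.

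MCL1 and BCL2 were higher in each of the 3 bile acid libraries than in any control, and no member was lower in all 3. These 2 of 10 compare with 5.29% of all tested genes above and 4.89% below. No member passed the test across all genes (edgeR quasi-likelihood, Benjamini-Hochberg adjusted p under 0.05), where 0.0% of 17743 genes passed and 588 genes, 3.31%, had an unadjusted p under 0.05. DESeq2 called 18 genes, 0.101% of the 17782 to which it gave an adjusted p, none of them a member. The median log2 fold change was −0.019 over the 10 members, 5 of them positive, and −0.011 over all tested genes, of which 48.8% were positive. In bulk RNA, fewer cells of one kind and less RNA per cell cannot be told apart.

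**Figure D1:**
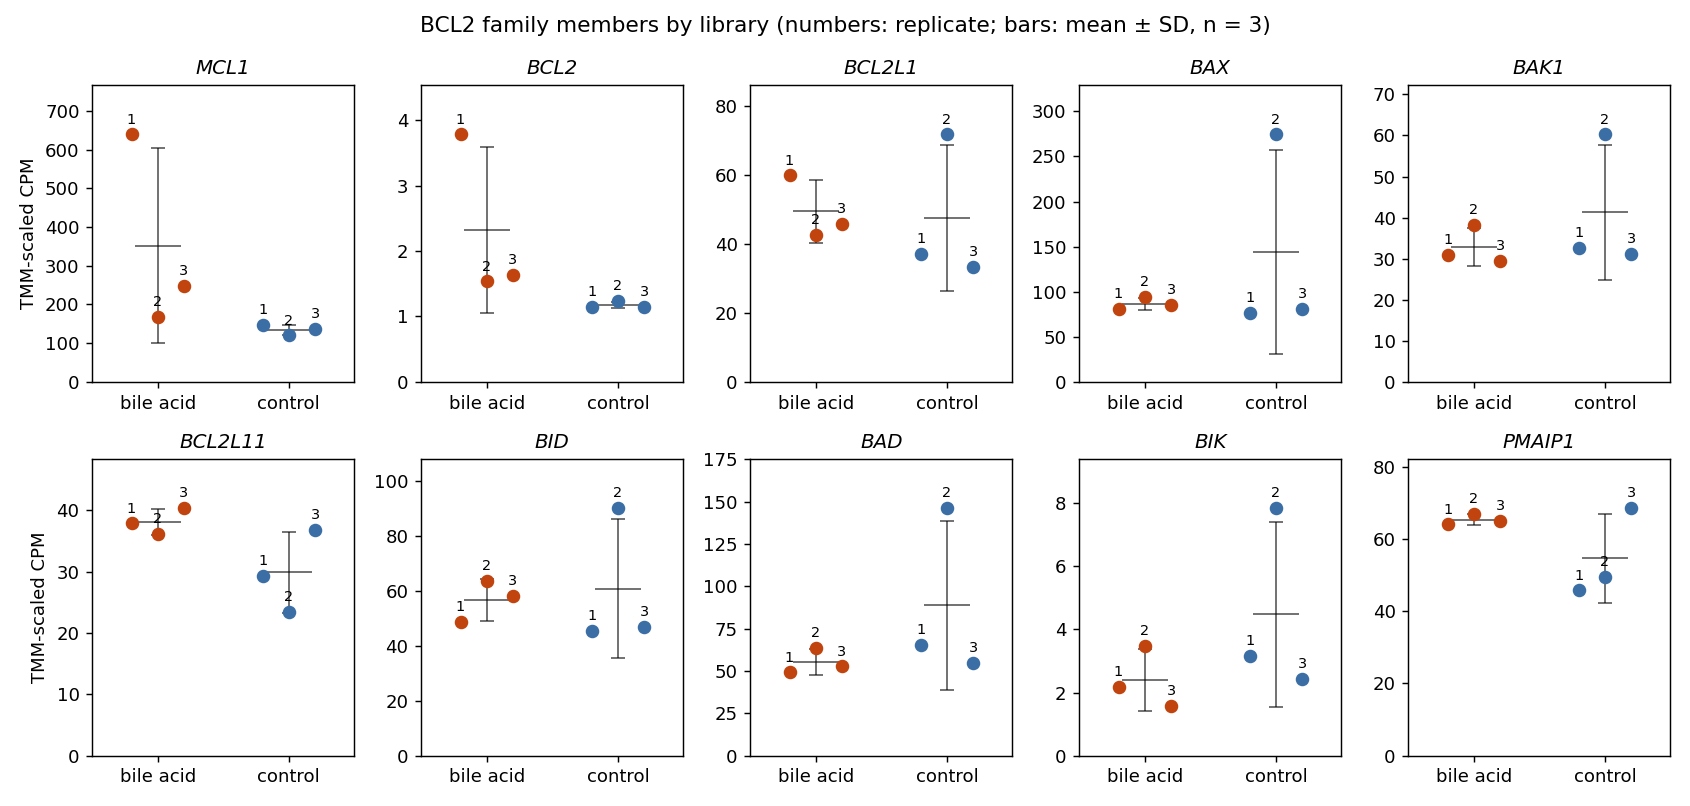
TMM-scaled CPM (y axis, from 0) of the 10 members in 3 bile acid (orange) and 3 control (blue) libraries, numbered by replicate, with the mean and SD of each group. Bile acid library 1 is the highest point for MCL1 and BCL2, and control 2 is the highest point for 6 members, BCL2L1, BAX, BAK1, BID, BAD and BIK.

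Among the pro-survival members, MCL1 (chromosome 1, 150574551 to 150579738, minus strand, GRCh38) measured 639, 169 and 249 CPM in bile acid libraries 1 to 3, against 147, 120.0 and 136 CPM in control libraries 1 to 3. All 3 bile acid libraries were above the highest control, library 1 by far the most and library 2 by little. The means were 352 ± 252 CPM in bile acid and 134 ± 13.6 CPM in control libraries (SD, n = 3 each), from 4615 to 17921 and 2143 to 4092 counts. Its log2 fold change was 1.39 (SE 0.47), with an unadjusted p of 0.0198 and an adjusted p of 0.911 in edgeR, which ranked MCL1 at 191 among all genes by p. The difference was thus not called once p was adjusted over all tested genes. In the authors' deposited table MCL1 stood at rank 74 by p, with a log2 fold change of 1.41 (SE 0.46) and an adjusted p of 0.477.

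The size of the MCL1 difference rested on 1 library. Without bile acid library 1 the log2 fold change was 0.64 (SE 0.26), and without both that library and control 2 it was 0.57 (SE 0.18). It was 1.32 (SE 0.44) without control 2, in which MCL1 lay at 120.0 CPM beside the other controls. The adjusted p without these libraries was 1.000, 0.352 and 0.485 in edgeR, so the gene was called in none of the 3 settings, while the unadjusted p was 0.0478, 0.00968 and 0.0124. MCL1 had a positive value in each of the 21 alternative settings. Its unadjusted p was 0.0850 in DESeq2 without control 2, where the log2 fold change was 1.33 (SE 0.77). It was 0.0589 in limma on log2(FPKM + 1) with all libraries, and under 0.05 in every other setting.

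BCL2, the founder of the family and a pro-survival protein of the outer membrane (chromosome 18, 63123346 to 63320128, minus strand), was the scarcest member. It measured 3.78, 1.54 and 1.63 CPM in bile acid libraries, against 1.15, 1.23 and 1.15 CPM in control libraries, from 42 to 106 and 22 to 32 counts. The bile acid libraries were all above the controls, again with library 1 the highest, at 1.22 above the mean of libraries 2 and 3 on the log2 CPM scale, where MCL1 stood 1.64 above. The log2 fold change of 0.97 (SE 0.47, edgeR, adjusted p = 0.911) was 0.43 (SE 0.45) without bile acid library 1 and 1.02 (SE 0.46) without control 2.

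BCL2L1, which encodes BCL-XL (chromosome 20, 31664452 to 31723989, minus strand), measured 59.9, 42.7 and 45.8 CPM in bile acid libraries, against 37.2, 71.8 and 33.4 CPM in control libraries. The groups overlapped because control 2 was the highest of the 6, and the log2 fold change was 0.060 (SE 0.32, edgeR, adjusted p = 0.977). Without control 2 it was 0.50 (SE 0.17), with an unadjusted p of 0.0168 and an adjusted p of 0.524 in edgeR, and all 3 bile acid libraries then lay above both remaining controls. Exons of ABALON, an antisense RNA, cover 43.0% of the exonic length of BCL2L1, and ABALON itself reached at most 1.89 CPM in any library. No source used here says whether reads were assigned by strand.

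Neither effector was separated between the groups, and control 2 was the highest library for both. BAX (chromosome 19, 48954815 to 48961798, plus strand) measured 80.8, 94.2 and 85.2 CPM in bile acid libraries, against 76.5, 274 and 81.1 CPM in control libraries. Controls 1 and 3 lay beside the bile acid libraries and control 2 lay far above all 5. Its log2 fold change was −0.73 (SE 0.49, edgeR, adjusted p = 0.911) with all libraries and 0.15 (SE 0.13, adjusted p = 0.853) without control 2, so the negative sign rested on control 2.

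BAK1, the other pore-forming effector (chromosome 6, 33572547 to 33580293, minus strand), measured 30.8, 38.2 and 29.4 CPM in bile acid libraries, against 32.7, 60.3 and 31.1 CPM in control libraries. Here too control 2 was the highest and the other libraries overlapped. Its log2 fold change was −0.33 (SE 0.29, edgeR, adjusted p = 0.911), and 0.053 (SE 0.17, adjusted p = 0.963) without control 2. The related pseudogene BAK1P1 reached at most 0.852 CPM in any library.

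**Figure D2:**
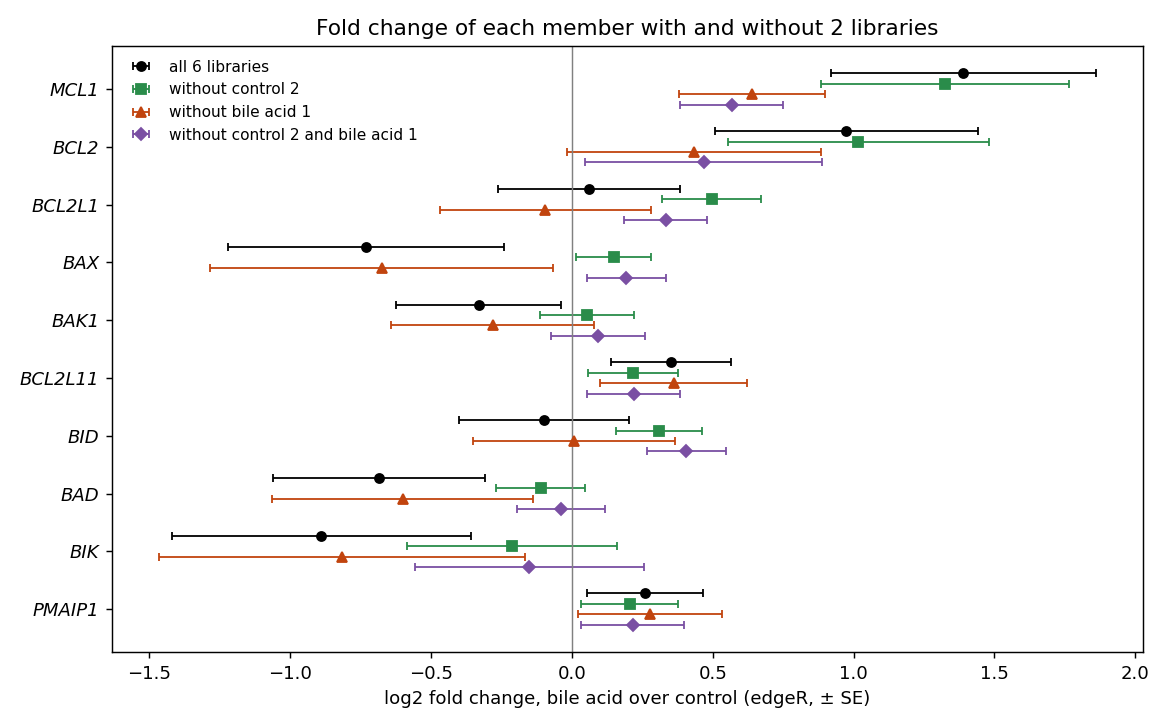
Log2 fold change of bile acid over control libraries (x axis, edgeR, bars ± SE) for each member with all 6 libraries, without control 2, without bile acid 1 and without both. MCL1 lies at 1.39 with all libraries and at 0.64 when bile acid 1 is left out, and BAX, BAK1 and BID change sign when control 2 is left out.

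Among the BH3-only members, PMAIP1 (chromosome 18, 59899948 to 59904306, plus strand), which binds MCL1 and marks it for destruction, measured 64.0, 66.9 and 65.0 CPM in bile acid libraries, against 45.7, 49.5 and 68.5 CPM in control libraries. The bile acid libraries had an SD of 1.45 CPM and lay above controls 1 and 2 and below control 3. On the log2 scale the fold change was 0.26 (SE 0.21, edgeR, adjusted p = 0.911), and 0.20 (SE 0.17) without control 2.

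BCL2L11 (chromosome 2, 111119378 to 111168447, plus strand), whose product BIM binds every pro-survival member and activates the effectors, measured 37.8, 36.2 and 40.3 CPM in bile acid libraries, against 29.3, 23.5 and 36.8 CPM in control libraries. Control 3 fell within the bile acid range, so the groups overlapped by a narrow margin. The log2 fold change of 0.35 (SE 0.21, edgeR, adjusted p = 0.911) was 0.22 (SE 0.16) without control 2, the lowest of the controls. Exons of MIR4435-2HG, a long RNA on the opposite strand, cover 10.9% of the exonic length of BCL2L11. MIR4435-2HG itself measured 40.1, 21.7 and 36.3 CPM in bile acid libraries, against 20.7, 16.7 and 13.8 CPM in control libraries, with no overlap between the groups, and its part in the BCL2L11 value was not tested.

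BID (chromosome 22, 17734138 to 17774770, minus strand), which caspase-8 cleaves to carry a death receptor signal to mitochondria, measured 48.6, 63.7 and 58.1 CPM in bile acid libraries, against 45.4, 90.2 and 47.0 CPM in control libraries. All bile acid libraries were above controls 1 and 3 and below control 2. With all libraries the log2 fold change was −0.10 (SE 0.30, edgeR, adjusted p = 0.959) and turned to 0.31 (SE 0.15, adjusted p = 0.666) without control 2. Leaving out bile acid library 1 as well gave 0.41 (SE 0.14), with an unadjusted p of 0.0144 and an adjusted p of 0.383.

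BAD (chromosome 11, 64269830 to 64284704, minus strand), which survival kinases keep inactive by phosphorylation, measured 49.1, 63.7 and 52.7 CPM in bile acid libraries, against 65.3, 146 and 54.7 CPM in control libraries. Bile acid libraries 1 and 3 lay below every control and library 2 did not. Over all 6 libraries the log2 fold change was −0.68 (SE 0.38, edgeR, adjusted p = 0.911), and −0.11 (SE 0.16) without control 2. Exons of GPR137 on the opposite strand cover 23.7% of the exonic length of BAD, and its own level was 97.1 to 118 CPM in bile acid libraries and 93.5 to 162 CPM in control libraries. It was highest in control 2, as BAD was, and its part in the BAD value was not tested.

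BIK (chromosome 22, 43110748 to 43129712, plus strand), an inducer of apoptosis at the endoplasmic reticulum and mitochondria and the gene of the set with the shortest exonic length, measured 2.18, 3.47 and 1.56 CPM in bile acid libraries, against 3.16, 7.84 and 2.43 CPM in control libraries. The groups overlapped and control 2 was the highest library. A log2 fold change of −0.89 (SE 0.53, edgeR, adjusted p = 0.911) was −0.21 (SE 0.37) without control 2. With 45 to 95 counts in bile acid and 57 to 140 in control libraries, BIK and BCL2 are the 2 members with the fewest reads.

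Leaving control 2 out, 4 of the 10 members lay above both other controls in every bile acid library, namely MCL1, BCL2, BCL2L1 and BID, and none lay below. Of all tested genes 12.1% lay above and 12.7% below in the same way. In edgeR without control 2, 8 of 10 members had a positive value, 0 passed, and MCL1 and BCL2L1 had an unadjusted p under 0.05, as did 7.98% of the genes tested there. In that fit 1 gene, 0.00547% of those tested, passed. Without both control 2 and bile acid library 1, 14 genes passed, 0.0778% of those tested, again with no member, and MCL1, BCL2L1 and BID had an unadjusted p under 0.05, as did 9.8% of all genes.

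The standing of control 2 varied with gene length. Among tested genes of at least 1 CPM, control 2 was set against the average log2 CPM of the other controls, and the median difference was 0.54 over 5126 genes shorter than 3524 bp, −0.058 over 5132 genes of 3524 to 6298 bp, and −0.53 over 5129 longer ones. BIK, BAD, BAX, BAK1 and BCL2L1, all in the shortest group, lay at 1.47, 1.29, 1.80, 0.92 and 1.02, and PMAIP1, in the same group, at −0.18. BID and MCL1, of middle length, lay at 0.96 and −0.24, and the long genes BCL2L11 and BCL2 at −0.48 and 0.093. Of the 10 members BAX alone lay beyond the central 80% of its length group, which ends at 1.64. With the length trend removed from each library, the log2 fold change was −0.52 for BAX, −0.43 for BAD and −0.59 for BIK, and 1.37 for MCL1.

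**Figure D3:**
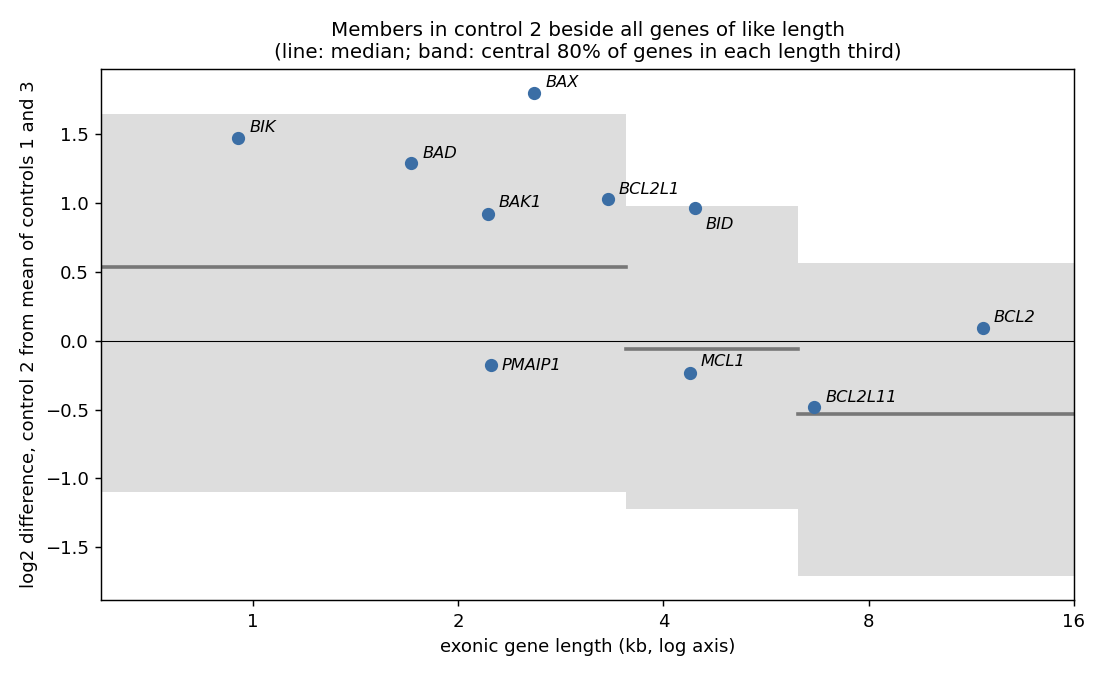
Difference in log2 CPM between control 2 and the average of the other controls (y axis) against exonic gene length in kilobases (x axis, log scale) for the 10 members, beside the median and the central 80% of all genes in 3 length groups. BAX lies above the band at 1.80, and MCL1, PMAIP1 and BCL2L11 lie below 0.

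Levels were compared between genes with the deposited FPKM, which are per kilobase of gene. In bile acid libraries MCL1 was the most abundant member at 68.6 ± 48.9 FPKM (SD, n = 3), and its lowest library, 32.9 FPKM, was above the highest for BAX, 31.0 FPKM. BAX, BAD and PMAIP1 followed at 28.6 ± 2.25, 27.5 ± 3.78 and 24.9 ± 0.562 FPKM, with overlapping ranges between neighbours. Then came BCL2L1, BAK1 and BID at 12.7 ± 2.33, 12.6 ± 1.80 and 10.9 ± 1.46 FPKM, also overlapping. BCL2L11 at 4.88 ± 0.276, BIK at 2.15 ± 0.869 and BCL2 at 0.168 ± 0.0915 FPKM were each separate from the gene before.

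In control libraries BAX and BAD came first at 47.8 ± 36.8 and 44.7 ± 24.5 FPKM, with control 2 far the highest library for both, and MCL1 was next at 26.7 ± 3.07 FPKM. In control 1 BAX, BAD and MCL1 measured 25.9, 33.5 and 29.4 FPKM. In control 3 they measured 27.3, 27.9 and 27.1 FPKM. The higher mean of BAX than of MCL1 thus rested on control 2. The ranges of neighbours overlapped from BAX down to BID at 11.8 ± 4.73 FPKM, with PMAIP1, BAK1 and BCL2L1 between MCL1 and BID at 21.2 ± 4.83, 16.1 ± 6.13 and 12.3 ± 5.30 FPKM. BIK and BCL2L11, at 4.04 ± 2.58 and 3.89 ± 0.908 FPKM, overlapped each other, and BCL2 was last at 0.0866 ± 0.00215 FPKM. BCL2 mRNA was thus at under 1 FPKM in all 6 libraries, while MCL1 was at or above 23.4 FPKM in all 6.

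MCL1 made up more of the summed FPKM of the 3 pro-survival members than BCL2 and BCL2L1 together in every library. Its share of the summed FPKM of MCL1, BCL2 and BCL2L1 was 88.8%, 74.77% and 80.3% in bile acid libraries 1 to 3, against 74.82%, 55.8% and 75.4% in control libraries 1 to 3. Bile acid libraries 1 and 3 were above the controls, while library 2 lay just below controls 1 and 3 and above control 2. The means were 81.3% ± 7.08 in bile acid and 68.7% ± 11.2 in control libraries (SD, n = 3 each), a difference of 12.6 percentage points that was 6.21 points without control 2. With the further pro-survival genes BCL2L2 and BCL2A1 in the sum, the MCL1 share was 84.1%, 63.6% and 71.4% in bile acid libraries, against 62.1%, 49.4% and 62.4% in control libraries, so in control 2 it was then below 50%.

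The 3 pro-survival genes together had 3.64, 0.962 and 1.53 times the summed FPKM of BAX and BAK1 in bile acid libraries, against 1.01, 0.369 and 0.910 times in control libraries. Bile acid library 1 was highest and control 2 lowest. The denominators were alike, at 38.4 to 45.7 FPKM, in all libraries but control 2, where they came to 113 FPKM. No test was made of these sums, whose members were chosen with earlier results of these data known.

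**Figure D4:**
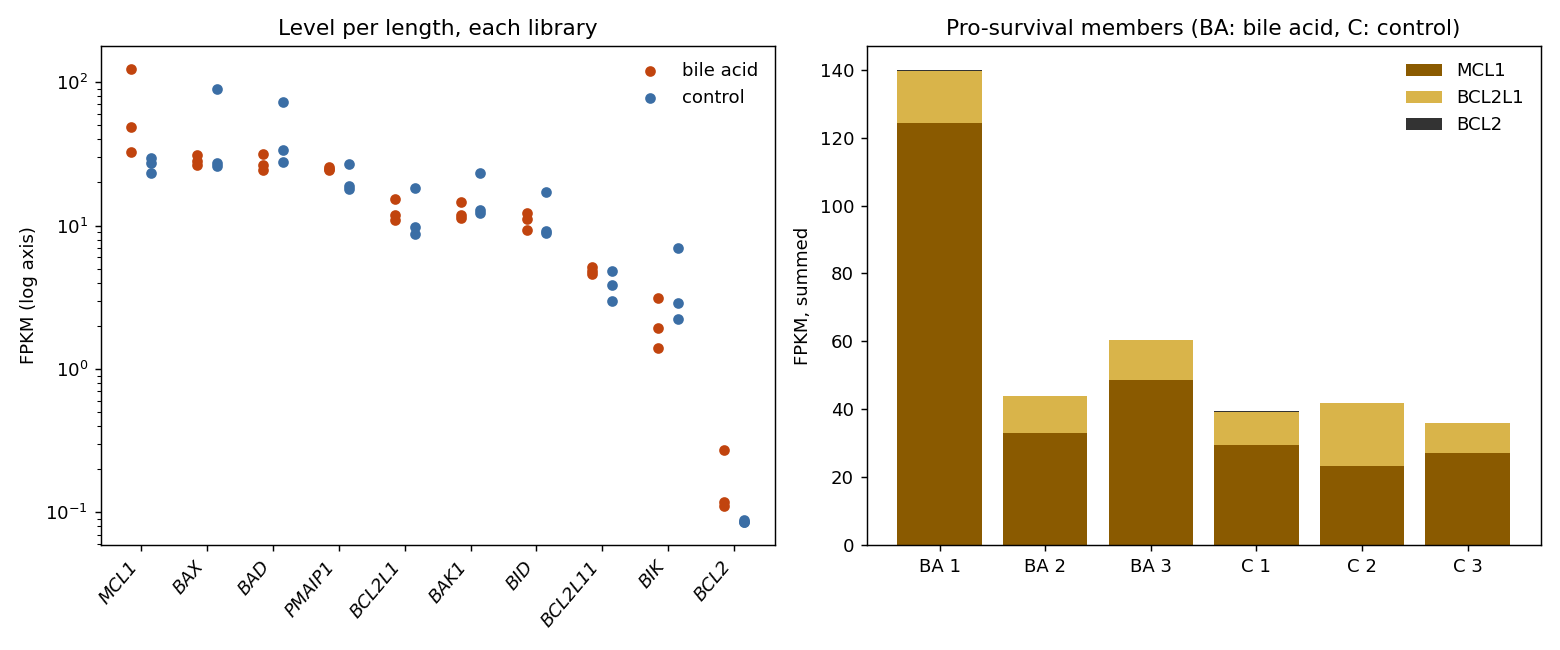
Left, FPKM of each member on a log axis in 3 bile acid (orange) and 3 control (blue) libraries, ordered by the bile acid mean. Right, summed FPKM of MCL1, BCL2L1 and BCL2 in each library, where bile acid 1 reaches 140.0 FPKM and the other 5 libraries lie between 36.0 and 60.5 FPKM.

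Outside the 10 members, 13 further genes of the family were read, of which 10 could be tested. None passed and none had an unadjusted p under 0.05 in edgeR (3.31% of all tested genes). None was separated between the groups (5.29% of all tested genes above and 4.89% below). The median log2 fold change of these family genes was 0.013. The largest values were those of BCL2L10, a pro-survival relative, at −0.72 (SE 0.66) from 6 to 12 counts in bile acid and 6 to 16 counts in control libraries. HRK and BMF, both BH3-only genes, followed at 0.56 (SE 0.45) and 0.41 (SE 0.33). BCL2A1, BCL2L14 and BCL2L15 had too few reads to test.

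Of 18 genes that act after or at the opening of the outer membrane, from cytochrome c and APAF1 to the executioner caspases and their inhibitors, 0 passed, 11 of 18 tested had a positive value and the median was 0.076. BIRC3 was the 1 gene of this list with an unadjusted p under 0.05 in edgeR, beside 3.31% of all tested genes. VDAC1, a channel of the outer membrane, measured 382 to 433 CPM in bile acid libraries and 285 to 365 CPM in control libraries. CASP9, the initiator caspase, lay lower in every bile acid library than in any control. Its groups nearly touched, with bile acid library 1 at 15.122 CPM and control 3 at 15.126 CPM. Of all tested genes 5.29% lay above all controls and 4.89% below (VDAC1 and CASP9 were named after their values were seen). BIRC3, an inhibitor of apoptosis that is a known NF-κB target, measured 31.6, 14.8 and 28.6 CPM in bile acid libraries, against 16.03, 8.51 and 12.5 CPM in control libraries. Bile acid library 2 lay within the control range, and the log2 fold change was 1.01 (SE 0.36, edgeR, adjusted p = 0.911). DIABLO, which frees caspases from their inhibitors, had 0.73 (SE 0.72), with 5 counts in control 2 against 46 and 48 in the other controls, and 0.28 (SE 0.46) without that library. A further entry of DIABLO at the same place and strand had 0 to 4 counts per library and was not tested. How reads were shared between these entries is not known. BIRC5, the mitotic inhibitor survivin, had −0.54 (SE 0.39), and 0.077 (SE 0.16) without control 2.

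Of 8 genes tied to the turnover of MCL1 protein, 0 passed in edgeR, 6 had a positive value and the median was 0.16. DUSP6 was the 1 gene of this list with an unadjusted p under 0.05 in edgeR, beside 3.31% of all tested genes. In DUSP6 and BTRC all bile acid libraries were above all controls, as they were in 5.29% of all tested genes. DUSP6, a phosphatase of ERK, a kinase that can stabilise MCL1, measured 45.5, 3.95 and 8.73 CPM in bile acid libraries, against 2.73, 2.97 and 2.22 CPM in control libraries. As with MCL1 and BCL2, library 1 was far above the rest. The log2 fold change of 2.88 (SE 0.86, edgeR, adjusted p = 0.911) passed in DESeq2 with an adjusted p of 0.0498, and was 1.27 (SE 0.43) without bile acid library 1. BTRC, part of a ligase for MCL1, had 0.39 (SE 0.24) and USP9X, which removes ubiquitin from MCL1, 0.36 (SE 0.31).

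Of 16 transcription factors known to act on members, 0 passed in edgeR, 10 had a positive value and the median was 0.13. MYC and FOXO1 had an unadjusted p under 0.05 in edgeR, beside 3.31% of all tested genes. MYC, FOXO1 and ELK1 were higher in all bile acid libraries than in any control, and 1 gene of the list was lower. Of all tested genes 5.29% were higher and 4.89% lower in this way. MYC, known to raise BCL2L11, measured 107, 58.9 and 92.1 CPM in bile acid libraries, against 42.5, 30.8 and 28.7 CPM in control libraries. The groups were well apart, and the log2 fold change of 1.34 (SE 0.28, edgeR, adjusted p = 0.911) passed in DESeq2 with an adjusted p of 0.0396. DDIT3 and ATF4, which raise PMAIP1 and BCL2L11 under stress of the endoplasmic reticulum, had −1.12 (SE 0.66) and −0.70 (SE 0.50), and −0.024 (SE 0.34) and −0.029 (SE 0.29) without control 2. FOXO1, a known activator of BCL2L11, measured 44.8, 40.2 and 57.0 CPM in bile acid libraries, against 34.2, 25.0 and 31.6 CPM in control libraries. Its log2 fold change was 0.64 (SE 0.22, edgeR, adjusted p = 0.911). FOXO1 and ELK1 were named after their values were seen.

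MCL1 was set beside 11393 other protein-coding genes of at least 5 CPM by the root-mean-square difference of their log2 CPM, each centred on its own mean, over the 6 libraries. The nearest was CCND1, the cyclin D1 gene that growth signals raise, at 0.15, with 69.7, 20.8 and 36.6 CPM in bile acid libraries, against 19.1, 14.7 and 14.96 CPM in control libraries. EPHA2, a receptor tyrosine kinase, followed at 0.18, then MIDN, which carries nuclear proteins to the proteasome, at 0.19. TFRC, the transferrin receptor, came at 0.21, while the median over all genes compared was 0.84. These 4 genes had their highest value in bile acid library 1, and their log2 fold changes ran from 1.19 to 1.38, each with an adjusted p of 0.911 in edgeR. They were picked for nearness to MCL1 over the same 6 libraries, so this likeness follows from the choice. The nearest of the members of at least 5 CPM was BCL2L11 at 0.70, in position 1916, and the farthest was BAX at 1.23, in position 10897.

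**Figure D5:**
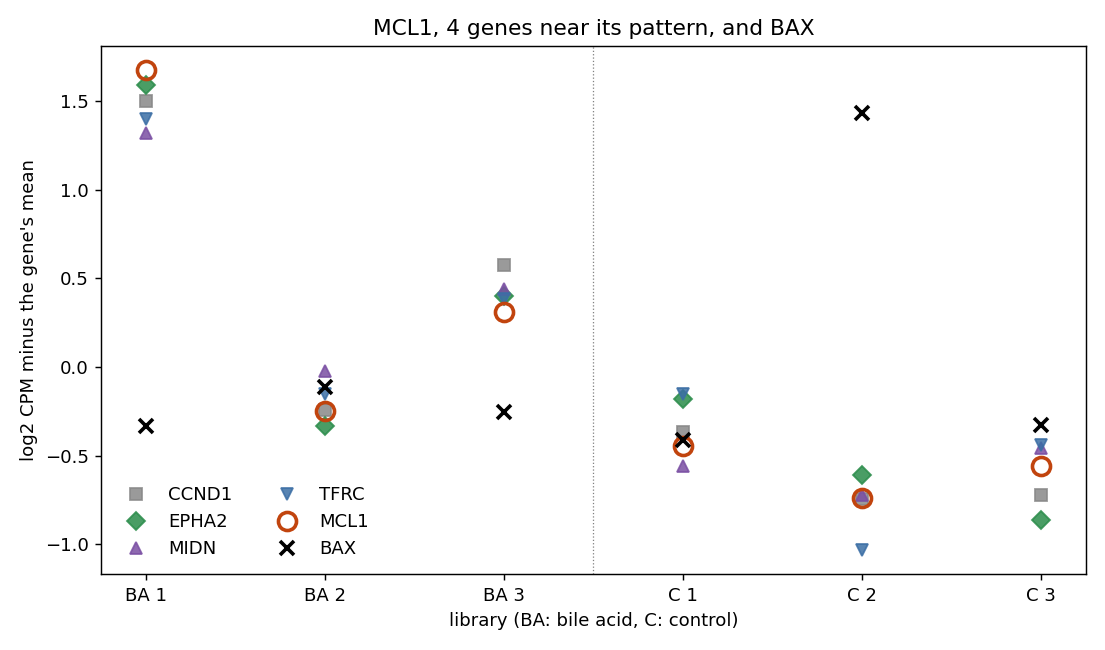
Log2 CPM minus each gene's mean (y axis) in the 6 libraries (x axis) for MCL1, 4 of the genes nearest to it (CCND1, EPHA2, MIDN and TFRC), and BAX for contrast. MCL1 and these 4 genes are highest in bile acid 1 and next highest in bile acid 3, while BAX is highest in control 2. The 4 genes were picked for this likeness.

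In the authors' deposited table of gene set enrichment, which lists 2196 Gene Ontology terms with an adjusted p under 0.05, 44 terms name an apoptotic process and all 44 have a positive enrichment score. Of all terms in the authors' deposited table, 96.3%, or 2114 of 2196, have a positive score too, so the sign does not set the apoptotic terms apart. The authors' deposited table counts BCL2 among the leading genes of 33 of these terms, BCL2L11 in 19, MCL1 in 17 and PMAIP1 in 10, and BCL2L1, BAX, BAK1, BID, BAD and BIK in 0. Leading genes of a term with a positive score come from the higher end of the ranking. In the authors' deposited table BAX, BAK1, BID, BAD and BIK had negative log2 fold changes, and BCL2L1 had 0.093. The split of the members thus follows from these fold changes and adds no result of its own. Terms of opposite sense were both listed: positive regulation of the apoptotic process (489 genes, normalized score 2.08) and negative regulation of apoptotic signaling (221 genes, normalized score 1.79) in the authors' deposited table. These scores come from the same 6 libraries, control 2 included.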

How the data were processed

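RNA of 3 bile acid and 3 control Het1A libraries was sequenced with paired-end Illumina reads, per the labels' protocols. The submitters' processing notes name GRCh38 as build and list HISAT2 2.0.5, featureCounts and DESeq2, but not what each was used for. The authors deposited whole-number counts per gene, FPKM per gene and library, and normalized counts, a signal equal to whole reads divided by a size factor, with 100% of values whole within 0.01 reads. The reads so recovered exceed the count table in total, so they come from another counting. The authors also deposited a comparison with log2 fold changes, a test score and p-values per gene, and a gene set table with scores, p-values and other values such as term size.

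Groups were compared on the deposited counts with edgeR 4.0.16 in R 4.3.3 (quasi-likelihood test), using TMM scaling, filterByExpr and no covariate, adjusted over all 17743 genes with the Benjamini-Hochberg method and a threshold of 0.05. The fit was checked on simulated counts with the same dispersion for every gene, no outlying library and no length trend. That check does not cover data with a library like control 2. Standard errors are the log2 fold change over the root of F. Alternatives were DESeq2 1.42.0, limma 3.58.1 on voom weights and on log2(FPKM + 1) or log2(FPKM + 0.1), RLE and library size scaling, other filters, a replicate block, removal of the length trend (lowess, span 0.3), the recovered reads, and each library left out. A gene with 3 counts lay at 0.104 to 0.168 CPM, a floor for counting error only. Log2 CPM used a prior count of 2.

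BH3 codons were found by translating GENCODE transcripts with Biopython 1.88. Genes named beyond the members are those with the 3 largest log2 fold changes per list and the 5 nearest to MCL1, 1 of which is not reported here. The members and lists were chosen with earlier results of these data known.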

Additional observations from a re-analysis of the deposited data

How the results depend on the processing

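No member was called in any of the 21 alternative settings, 19 planned and 2 added after seeing the data, and over all members and settings 196 of 209 log2 fold changes kept their sign. MCL1 ranged from 0.57 to 1.74, BCL2 from 0.10, in log2(FPKM + 1), to 1.21, BCL2L11 from 0.22 to 0.54 and PMAIP1 from 0.15 to 0.46, all positive, while BAD ranged from −0.93 to −0.04 and BIK from −1.24 to −0.15. The sign turned in 13 cases. BCL2L1 gave −0.094 without bile acid library 1, −0.081 without control 1 and −0.13 without control 3, and reached 0.50 without control 2. Without control 2, BAX gave 0.15 in edgeR and in DESeq2, BAK1 0.053 in both and BID 0.31 in both. Without control 2 and bile acid library 1, BAX gave 0.19, BAK1 0.092 and BID 0.41. BID also gave 0.0076 without bile acid library 1. With each library left out in turn the lowest values were −1.03 for BAX, −0.49 for BAK1 and −0.26 for BID. The count of called genes, 0 in edgeR, was 18 in DESeq2, 155 in DESeq2 without control 2, 14 in edgeR without control 2 and bile acid library 1, and 0 to 1 with each library left out. In DESeq2 the turnover list had 1 call and the transcription factors 1, and the transcription factors also 1 in DESeq2 without control 2. The cause was not tested.

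Samples that share a replicate number had deviations from their group means that correlated at 0.31, 0.38 and 0.0979 across genes for numbers 1 to 3. Bile acid libraries 1 and 2 correlated best with the control of their own number, and library 3 did not. The labels give no more than a number. With 3 libraries per group these correlations cannot show whether libraries of the same number shared a culture or handling. With the replicate block edgeR called 0 genes, 1109 with an unadjusted p under 0.05, and MCL1 had a log2 fold change of 1.15. With the length trend removed and the replicate block it had 1.14. The difference in the MCL1 share of pro-survival FPKM, 12.6 percentage points, ranged from 6.21 to 16.0 with each library left out, was 15.1 with BCL2L2 and BCL2A1 counted, and is by construction the same in CPM per kilobase. Depth limits BCL2 and BIK most, at 22 to 140 counts.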
